A study of Mus musculus with 10 samples.

Results

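The loci of 10 genes were followed in mouse lung DNA: Kat6a, Gtf2e2, Ints6, Zfp568, Errfi1, Sppl3, Pcmtd1, Rps24, Clec4d and 2310035C23Rik, which the RefSeq annotation now calls Relch. These genes are a part of those that the study chose, not its whole list. The study chose them because a window of 1000 bp assigned to each gained methylation with OVA and lost it again with DSE, and because their transcripts moved the opposite way. Each locus was taken as the RefSeq span of the gene in GRCm38 plus 30 kb on each side, and the 10 loci held 391 of the 446336 deposited windows. The study assigned 14 windows with the hyper/hypo pattern to these genes, here called listed windows, which form 11 separate stretches, and 13 of them lie inside the loci. The question addressed was whether the gain in OVA mice and the return in DSE mice belonged to the listed window or was shared by the promoter and the neighbouring windows of the same gene.

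Methylation was measured by SureSelect Methyl-seq, a capture of chosen regions followed by bisulfite sequencing, in whole lung of 10 BALB/c mice, female and 8 weeks old at purchase. Saline was given to 3 mice, the saline mice. Ovalbumin (OVA), an egg protein used as an allergen, was given to the 3 OVA mice as 50 µg by injection on days 0 and 7 and as 25 µg into the nose for 4 days from day 12. The 4 DSE mice, labelled Herb, received OVA in the same way and 200 mg/kg of an ethanol extract of Descurainia sophia seeds (DSE) by mouth on days 9 to 15. Each mouse had 306656737 to 410836272 calls over all windows and 257930 to 357279 over the windows of the 10 loci, where 1 to 12 windows per mouse held under 20 calls. Whole lung is a mixture of cells, so fewer cells of a type and a different methylation level per cell cannot be told apart here.

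In mammals the methyl group sits almost entirely on cytosines that are followed by guanine (CpG). Promoters rich in CpGs are mostly unmethylated whatever the activity of the gene, while isolated CpGs in introns and between genes are mostly methylated and differ between cell types. Among the genes, Kat6a encodes a histone acetyltransferase, Gtf2e2 a subunit of the general transcription factor TFIIE, Ints6 a subunit of the Integrator complex that cleaves nascent RNA, and Zfp568 a repressor with zinc fingers. Errfi1 encodes a feedback inhibitor of the epidermal growth factor receptor family, Sppl3 a protease of the Golgi membrane, Pcmtd1 a protein related to repair methyltransferases, and Rps24 a protein of the small ribosomal subunit. Clec4d encodes a C-type lectin receptor of myeloid cells, and Relch takes part in cholesterol transport within cells.

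The listed windows were poor in CpGs. They held a median of 8 CpGs, from 2 to 19, whereas all deposited windows held a median of 13, and 24.6% of all windows held 8 or fewer. Their median number of calls per mouse, that is of CpG readings, was 110, compared with 409 over all windows, and 30.6% of their bases were repeats at the median, compared with 16.4%. In 2 genes the values could be traced to a single CpG of the reference. Both listed windows of Rps24 held the same calls in every mouse, so these fell in the 500 bp that the windows share, chr14:24497501-24498000, which has 1 CpG in GRCm38. The 500 bp shared by the 2 windows of 2310035C23Rik, chr1:105680501-105681000, also have 1 CpG, and both windows held the same calls in all 6 saline and OVA mice. The bases around those 2 CpGs are shown first, on the plus strand of the C57BL/6J reference (GRCm38, RefSeq) with every CpG in capitals. They are followed by 300 bases of the listed Kat6a window and 200 bases each of the listed Gtf2e2 and Ints6 windows, placed where CpGs were densest in the Kat6a window and in the part of the Gtf2e2 and Ints6 windows that held the calls.
Rps24, chr14:24497483-24497584: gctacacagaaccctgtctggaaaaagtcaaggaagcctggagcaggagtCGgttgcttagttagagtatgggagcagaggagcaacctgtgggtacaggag
2310035C23Rik, chr1:105680860-105680961: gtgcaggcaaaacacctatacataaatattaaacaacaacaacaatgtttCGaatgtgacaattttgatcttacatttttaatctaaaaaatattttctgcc
Kat6a, chr8:22873701-22874000: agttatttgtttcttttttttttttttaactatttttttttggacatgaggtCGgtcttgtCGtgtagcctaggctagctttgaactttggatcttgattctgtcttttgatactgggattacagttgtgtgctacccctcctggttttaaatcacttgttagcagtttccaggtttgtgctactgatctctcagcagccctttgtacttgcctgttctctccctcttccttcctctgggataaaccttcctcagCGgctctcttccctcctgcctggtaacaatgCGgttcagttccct
Gtf2e2, chr8:33706301-33706500: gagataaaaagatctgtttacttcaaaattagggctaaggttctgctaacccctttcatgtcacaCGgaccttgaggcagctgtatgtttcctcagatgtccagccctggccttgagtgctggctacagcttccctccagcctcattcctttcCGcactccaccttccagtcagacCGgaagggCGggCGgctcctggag
Ints6, chr14:62774054-62774253: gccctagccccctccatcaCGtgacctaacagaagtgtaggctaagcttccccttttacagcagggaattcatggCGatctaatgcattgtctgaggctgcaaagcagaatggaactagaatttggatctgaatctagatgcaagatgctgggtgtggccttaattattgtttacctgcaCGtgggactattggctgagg

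The bases just before the start of a gene looked different for most of these genes. They are shown for 5 genes on the strand of the gene, all of them plus, ending at the base before the annotated gene. The 150 bases before Kat6a held 20 CpGs and those before Rps24 held 7, and the 101 bases before 2310035C23Rik held 6. The 150 bases before Errfi1, at the first of its start sites, held 1 CpG and those before Clec4d held 0. The windows at these 2 start sites were methylated in lung, as given further on.
Kat6a, chr8:22859292-22859441: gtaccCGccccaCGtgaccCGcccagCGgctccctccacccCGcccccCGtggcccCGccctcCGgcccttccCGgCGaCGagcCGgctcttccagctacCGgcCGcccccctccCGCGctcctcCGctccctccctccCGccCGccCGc
Rps24, chr14:24490528-24490677: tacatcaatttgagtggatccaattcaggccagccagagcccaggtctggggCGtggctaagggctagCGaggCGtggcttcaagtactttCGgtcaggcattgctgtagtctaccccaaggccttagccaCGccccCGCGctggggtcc
2310035C23Rik, chr1:105663742-105663842: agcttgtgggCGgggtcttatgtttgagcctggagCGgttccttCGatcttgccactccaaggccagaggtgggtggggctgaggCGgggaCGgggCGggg
Errfi1, chr4:150853646-150853795: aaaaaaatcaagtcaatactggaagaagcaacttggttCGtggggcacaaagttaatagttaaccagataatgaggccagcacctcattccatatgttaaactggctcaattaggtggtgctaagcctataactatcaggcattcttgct
Clec4d, chr6:123261957-123262106: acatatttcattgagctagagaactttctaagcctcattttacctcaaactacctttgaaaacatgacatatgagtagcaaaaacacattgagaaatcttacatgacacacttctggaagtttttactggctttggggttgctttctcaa

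None of the 14 listed windows lay within 1 kb of an annotated start site. They comprised 7 intergenic windows, 6 windows in introns and 1 window with an exon, and 5 lay in the gene to which they were assigned. Inside the loci they lay 1.8 to 29.0 kb from the start site of that gene. The window listed for Pcmtd1, chr1:7543001-7544000, lay 369.4 kb beyond the end of the gene, so it was outside the locus as defined here.

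At the listed windows the difference between the pooled percentages of the groups was 10.0 to 20.7 points in OVA vs. saline and -39.7 to -11.3 points in DSE vs. OVA. These values chose the genes, so they and the counts that follow are a description, and nothing is read from them beside the shares of all windows. A window was called where the groups differed by 10 points or more and the likelihood ratio test of a logistic model, run on every deposited window, stayed under 0.01 after Benjamini-Hochberg adjustment. By that rule 12 of the 14 were hyper methylated with OVA relative to saline, 12 were hypo methylated with DSE relative to OVA, and 10 were both. The same pattern was found in 0.19% of all windows tested. Every OVA mouse with at least 20 calls lay above every saline mouse in 12 of the 14 windows, above every DSE mouse in 11, and above both groups in 10. Among all windows with at least 20 calls in every mouse, 18% had every OVA mouse above every saline mouse and 1.85% above both groups.

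**Figure D1:**
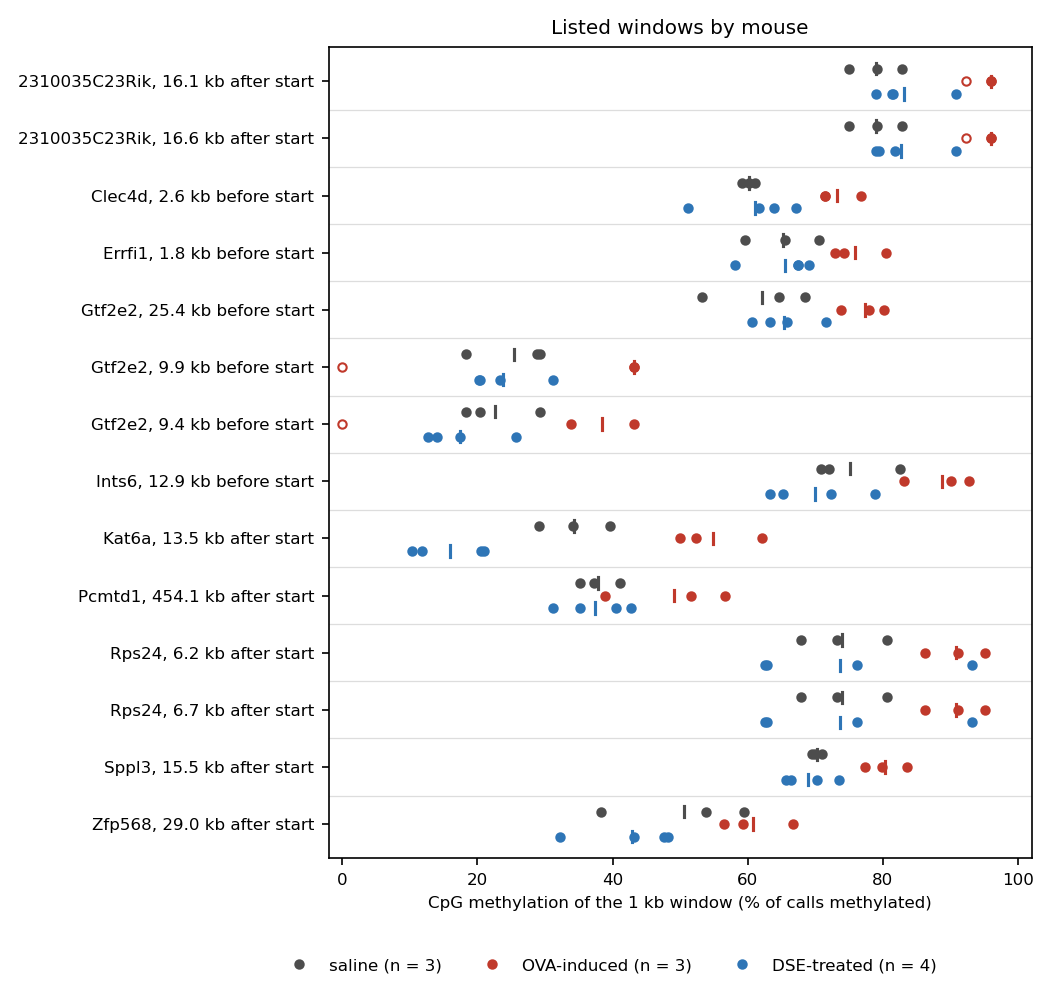
CpG methylation (x axis, percent of calls) of each mouse at the 14 listed windows, named by gene and distance from its start site, with a short bar at the mean of each group and open circles for mice with under 20 calls, which do not enter the mean. OVA mice sit above both other groups in 10 windows, and the 2 open circles at 0% belong to OVA replicate 3 in Gtf2e2.

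Kat6a showed the largest difference of the listed windows in both comparisons. At chr8:22873001-22874000, in an intron 13.5 kb after the start site, methylation was 34.1%, 29.2% and 39.6% in saline mice, 50%, 62.2% and 52.4% in OVA mice and 10.3%, 20.9%, 20.5% and 11.9% in DSE mice. The 3 groups did not overlap, and the DSE mice lay below the saline mice, not at their level. This window held 21 to 86 calls per mouse. The pooled differences were 20.7 points in OVA vs. saline, which did not pass the threshold (adjusted p = 0.0147, likelihood ratio test), and -39.7 points in DSE vs. OVA. It was also the 1 listed window called in DSE vs. saline, at -19.0 points. The window that abuts it on the left, chr8:22872001-22873000, was methylated at 87.3% ± 10.0 (SD, n = 3) in saline, 85.4% ± 10.1 (n = 3) in OVA and 95.3% ± 0.951 (n = 4) in DSE mice. Its differences were -4.16 points in OVA vs. saline and 9.98 points in DSE vs. OVA, both opposite in sign to those of the listed window, and its DSE mice lay above all saline mice while the OVA mice overlapped both.

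A second Kat6a window, 20.5 kb before the start site at chr8:22838001-22839000, was listed by the study with the opposite, hypo/hyper pattern. It was methylated at 44.8% ± 13.4 (SD, n = 3) in saline, 35.5% ± 10.3 (n = 3) in OVA and 48.5% ± 3.44 (n = 4) in DSE mice. The saline and OVA mice overlapped widely, from 31.5% to 58.3% and from 25.5% to 46.2%. The hypo/hyper pattern was found in 0.125% of all windows tested and in 0 windows of the 10 loci, because the OVA vs. saline difference of -10.7 points at this window did not pass the threshold (adjusted p = 0.0246, likelihood ratio test). Single mice decided this: the difference was -15.2 points without saline replicate 3 and -15.6 points without OVA replicate 1, both past the threshold, but -4.70 points without saline replicate 1 and -6.03 points without OVA replicate 3. The DSE vs. OVA difference of 13.4 points lost its call without OVA replicate 3, at 8.74 points, and also without OVA replicate 2 or DSE replicate 1. The 2 listed Kat6a windows lie 35 kb apart and moved in opposite directions in both comparisons.

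Gtf2e2 had 3 listed windows in 2 places before the gene. At chr8:33705501-33706500 methylation was 53.2%, 64.6% and 68.4% in saline, 73.8%, 78.0% and 80.2% in OVA and 60.7%, 71.6%, 65.8% and 63.3% in DSE mice. All OVA mice stood above the other groups. The overlapping windows at chr8:33721001-33722000 and chr8:33721501-33722500 behaved differently among the OVA mice. In the first, replicates 1 and 2 had 43.2% and 43.1%, above the saline mice at 18.3% to 29.3% and the DSE mice at 20.2% to 31.2%. Replicate 3 had 0 methylated of 15 calls, which allows up to 20% by counting error, and fell under the minimum of 20 calls, so the values for OVA at this place rest on 2 mice.

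The other listed window of a transcription gene, at Ints6, lay in the unrelated gene 4931440J10Rik, 12.9 kb before the start site of Ints6 at chr14:62774001-62775000. Methylation was 82.5%, 70.8% and 72.1% in saline, 90.1%, 83.2% and 92.8% in OVA and 65.2%, 78.8%, 63.3% and 72.4% in DSE mice. The OVA mice lay above all others, although their lowest value, 83.2%, was close to the highest saline value. At Zfp568, chr7:30013001-30014000 covers an exon of the gene, and methylation was 59.4%, 53.8% and 38.3% in saline, 59.3%, 56.5% and 66.7% in OVA and 43.2%, 47.6%, 32.2% and 48.2% in DSE mice. OVA and saline mice overlapped there, and OVA vs. saline did not pass the threshold at 10.8 points (adjusted p = 0.0130, likelihood ratio test). That difference was 4.11 points without saline replicate 3, and it passed the threshold without saline replicate 1, at 14.9 points, saline replicate 2 or OVA replicate 2.

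At Errfi1 the listed window chr4:150851001-150852000 lay 1.8 kb before the first start site, in an intron of 1700045H11Rik. Methylation was 70.5%, 65.5% and 59.6% in saline, 80.5%, 72.8% and 74.2% in OVA and 58.1%, 67.4%, 69.1% and 67.5% in DSE mice. All OVA mice stood above the other groups, and saline and DSE mice overlapped. At Sppl3, in an intron at chr5:115027001-115028000, methylation was 69.5%, 71.1% and 70.0% in saline, 79.9%, 77.4% and 83.5% in OVA and 66.4%, 70.2%, 65.7% and 73.6% in DSE mice. The OVA mice again stood above both other groups.

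For Rps24 the single CpG at position 24497533 of chromosome 14 gave 80.6%, 67.9% and 73.2% in saline, 91.2%, 95.1% and 86.2% in OVA and 62.5%, 93.2%, 76.2% and 62.8% in DSE mice, from 21 to 44 calls per mouse. DSE replicate 2 lay within the range of the OVA mice, and without it the DSE vs. OVA difference was -25.7 points in place of -17.1. The 2 listed Rps24 windows therefore report 1 measurement, not 2. The 2 listed windows of 2310035C23Rik, in an intron 16.1 and 16.6 kb after the start site, had 75%, 82.9% and 79.2% in saline and 92.3%, 96.0% and 96.0% in OVA mice, all read at the CpG shown above. In the first of them DSE mice had 81.6%, 79.0%, 81.4% and 90.8%. OVA replicate 1 had 13 calls there and was left out of the fit, and DSE vs. OVA did not pass the threshold in either window (adjusted p = 0.0304 and 0.0270, likelihood ratio test).

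At Clec4d, chr6:123258501-123259500 lay 2.6 kb before the start site and had 60.2%, 61.1% and 59.1% in saline, 76.7%, 71.4% and 71.4% in OVA and 51.2%, 63.9%, 61.7% and 67.2% in DSE mice. The OVA mice did not overlap the others. At the Pcmtd1 window the values were 37.3%, 41.1% and 35.2% in saline, 56.6%, 38.9% and 51.7% in OVA and 31.2%, 40.6%, 35.2% and 42.7% in DSE mice, and OVA replicate 2 lay within both other groups. Without that mouse the OVA vs. saline difference at Pcmtd1 was 16.1 points in place of 10.7. Of the 12 calls among the listed windows in OVA vs. saline, 2 held whichever mouse was left out, at Clec4d and at the first window of Gtf2e2. Of the 12 for DSE vs. OVA, those at Kat6a, Zfp568, Ints6 and the first window of Gtf2e2 held in the same way. The DSE vs. OVA calls at the overlapping windows of Gtf2e2 held in each omission that was tested. Without OVA replicate 1 or 2 those windows had too few OVA mice to be tested. The 95% Wilson interval of a mouse at a listed window reached a median of 8.11 points to each side, from 3.57 to 19.6, which covers counting error only. DSE vs. saline differed by -19.0 to 3.79 points over the listed windows.

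The deposited windows overlap by 500 bp, so the calls of some 500 bp pieces can be worked out from overlapping windows. In 3 loci this gave a piece inside a listed window next to a piece outside it. At Gtf2e2 the inner piece, chr8:33706001-33706500, held all calls of the listed window, and methylation was 62.1% ± 7.92 in saline, 77.3% ± 3.25 in OVA and 65.3% ± 4.65 in DSE mice (SD, n = 3, 3 and 4). The next piece, chr8:33706501-33707000, was at 27.9% in saline, 27.2% in OVA and 26.1% in DSE mice, with differences of -0.67 points in OVA vs. saline and -1.42 points in DSE vs. OVA. At Ints6 the pooled differences were 12.5 and -18.0 points in the inner piece chr14:62774001-62774500 but -4.36 and 0.05 points in the piece before it. At Zfp568 they were 10.8 and -16.8 points in the inner piece chr7:30013001-30013500 but -3.73 and -3.00 points in the piece before it. Differences of 10 points or more were thus seen in the inner and not in the outer piece of these 3 loci, but the inner pieces hold the values that chose the windows, and at Zfp568 the OVA and saline mice overlapped in the inner piece.

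The listed windows of Clec4d and Pcmtd1 could be split into 2 pieces each, and there neither piece moved as far as the whole window. At Clec4d, whose whole window differed by 13.2 points in OVA vs. saline and -13.0 points for DSE vs. OVA, the pieces chr6:123258501-123259000 and chr6:123259001-123259500 differed by 11.9 and 9.36 points in the first comparison and by -4.86 and -6.79 points in the second. Mean methylation was 71.7%, 83.4% and 78.8% in the first piece and 41.0%, 50.5% and 45.0% in the second (saline, OVA, DSE), and OVA and DSE mice overlapped in both. The less methylated second piece held 37.2% of the calls of the window in saline, 30.4% in OVA and 52.1% in DSE mice, with 45 to 51 calls in each OVA mouse and 127 to 238 in each DSE mouse. The percentage of the whole window therefore also moved with where its calls fell. At Pcmtd1 the pieces differed by 6.08 and 7.60 points in OVA vs. saline and by -2.60 and -9.55 points for DSE vs. OVA, less than the 10.7 and -11.8 points of the window. Its less methylated second piece held 79.7% of the calls in saline, 69.6% in OVA and 80.4% in DSE mice, and OVA mice overlapped both other groups in both pieces. The listed windows of Kat6a, Errfi1, Sppl3 and 2310035C23Rik and the second place in Gtf2e2 could not be split in this way.

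**Figure D2:**
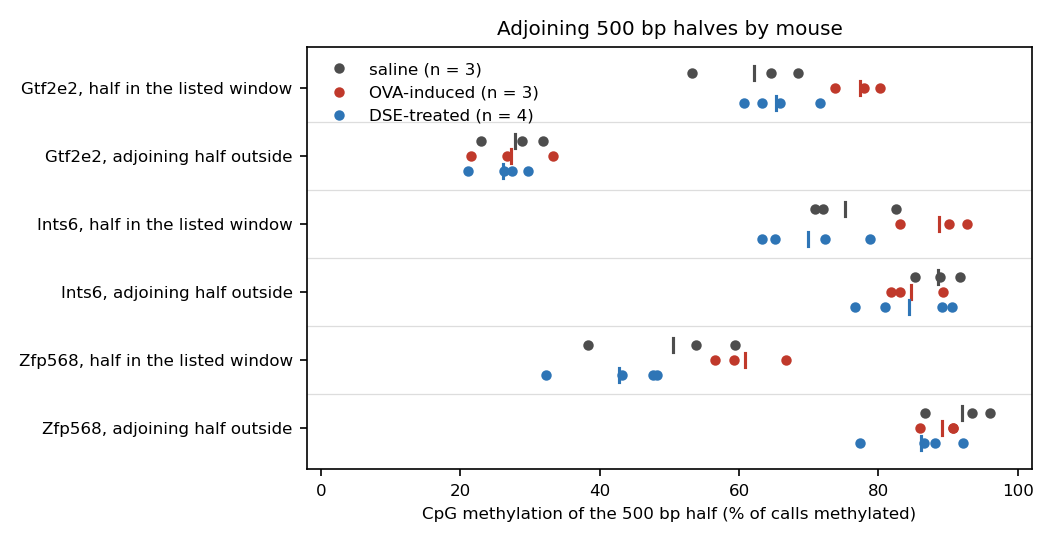
CpG methylation (x axis, percent of calls) of each mouse in adjoining pieces of 500 bp inside and outside the listed window of 3 loci, with a short bar at the mean of each group. The OVA mice stand apart from the DSE mice in each inner piece and overlap them in each outer piece.

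Going outward, 6 analysed windows abutted a listed window without sharing a base with it, at 5 of the 11 stretches. The other stretches had no abutting window, so their edges could not be read from a separate window. Their nearest clear windows lay, for example, 500 bp away at Rps24 and at least 119500 bp away at Pcmtd1. The abutting windows at Gtf2e2, Ints6 and Zfp568 had the values of the outer pieces given above, so they add no new measurement. Of the 6 abutting windows, 2 were higher in OVA vs. saline and 3 were lower in DSE vs. OVA, and 1 moved in both of these directions. That window was chr4:150850001-150851000 at Errfi1, with 36.7%, 33.6% and 34.9% in saline, 46.0%, 41.0% and 40.9% in OVA and 35.7%, 34.9%, 35.2% and 40.4% in DSE mice. Every OVA mouse lay above all others, and the differences of 7.54 and -6.19 points were under the threshold of 10 points. On the other side of the listed window, in chr4:150852001-150853000, the differences were 5.04 and 0.12 points. Windows that overlapped a listed window, and so shared its calls, had median differences of 7.62 and -6.65 points over 8 windows.

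Over the 9 loci that contain their listed window, the median difference in OVA vs. saline was 14.5 points at the listed windows, 1.36 points at windows up to 5 kb away, 0.30 points at 5 to 20 kb and 1.09 points beyond 20 kb. In DSE vs. OVA the medians were -16.8, 0.06, 0.20 and -0.21 points in the same order. The medians over all deposited windows were 0.73 points in OVA vs. saline and -0.04 points in DSE vs. OVA. Outside the listed windows and their overlaps, the median locus window was thus close to the median window of the genome.

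**Figure D3:**
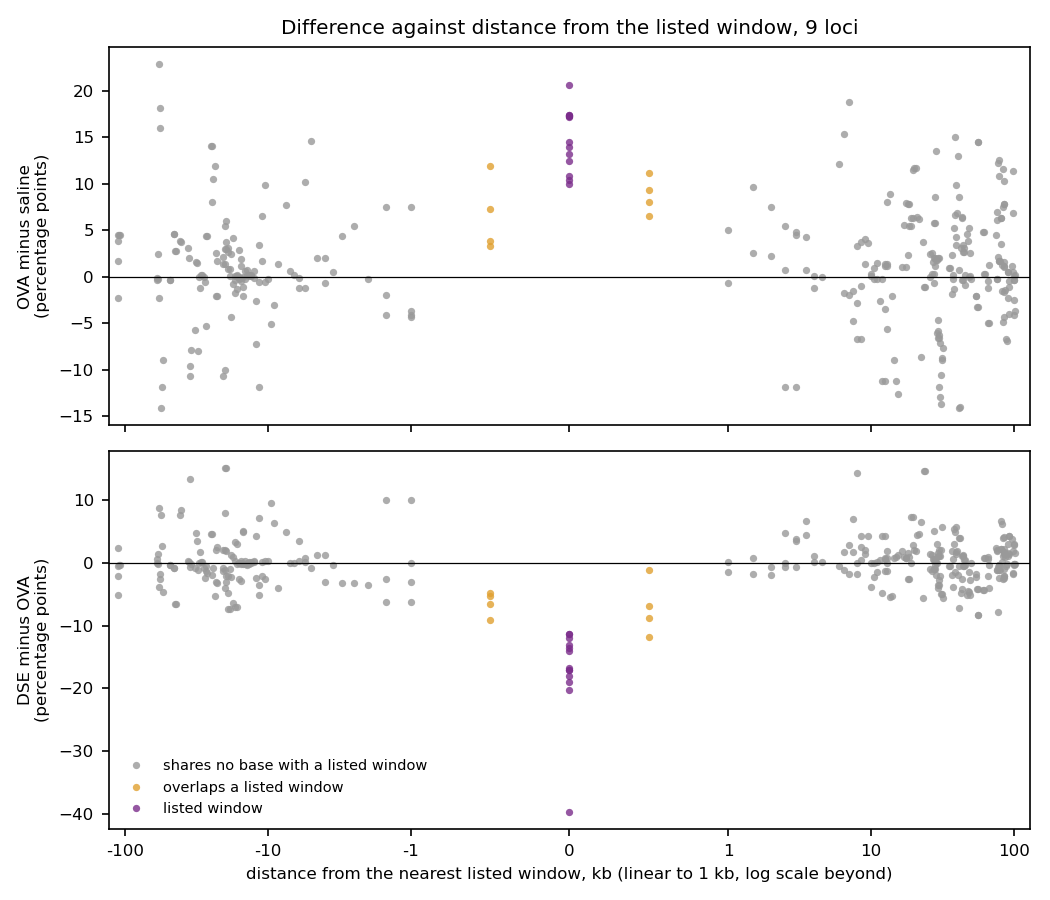
Difference in percentage points (y axis) in OVA vs. saline (top) and DSE vs. OVA (bottom) for each window of 9 loci against its distance from the nearest listed window (x axis, kb, linear to 1 kb and log scale beyond). In DSE vs. OVA the grey windows, which share no base with a listed window, lie between -8.28 and 15.2 points, while the listed windows lie at -11.3 points or lower.

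Counting calls gave the same picture with an asymmetry between the comparisons. In OVA vs. saline, 35 of 383 tested locus windows were hyper methylated and 15 were hypo methylated, beside 4.75% and 2.56% of all windows. Without the listed windows and those overlapping them, 22 of 362 (6.08%) were hyper and 15 (4.14%) were hypo methylated. In DSE vs. OVA, 3 of 386 were hyper and 12 were hypo methylated, beside 0.898% and 0.725% of all windows, and the 12 hypo methylated windows were 11 listed windows and the one that overlaps the listed window of Sppl3. Of the 365 windows clear of the listed ones, 3 were hyper and 0 were hypo methylated. The hyper/hypo pattern was found in 9 windows of the loci, all of them listed. This count fell to 3 without saline replicate 3, 4 without OVA replicate 1, 5 without saline replicate 2 and 5 without DSE replicate 1. Since the study listed each window with that pattern, its absence from the rest of a locus follows in part from how the listed windows were chosen, but the listing did not fix how far the other windows moved within the threshold of 10 points.

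These sizes can be read from the 22 windows that were hyper methylated in OVA vs. saline and clear of the listed ones, by 10.3 to 22.9 points in 5 loci. Their differences in DSE vs. OVA lay between -3.86 and 4.95 points, with a median of -0.999, and 0 of them reached 10 points in either direction. In DSE vs. saline they still differed by 7.9 to 20 points, with a median of 13.7. That none fell by 10 points with DSE, and in part the remaining difference from saline, follows from leaving out the listed windows. The 15 hypo methylated windows, at -14.2 to -10.1 points in OVA vs. saline, differed by -5.02 to 7.61 points in DSE vs. OVA. Windows in both sets overlap, so they are not all separate measurements. At Kat6a, chr8:22848001-22849000 and chr8:22848501-22849500 even held the same calls. Among windows that do not overlap, 9 hyper and 7 hypo methylated ones were clear of the listed windows. OVA mice are part of both of the first comparisons, so their values here are not independent of each other. Over all locus windows, 27 of 388 were hyper and 16 were hypo methylated in DSE vs. saline, beside 4.95% and 3.07% of all windows.

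Errfi1 held 8 of these 22 windows, more than any other of the 10 loci. In OVA vs. saline 9 of its 49 windows were hyper methylated, of which 8 were clear of the listed one, and 0 were hypo methylated. Of these 8, 3 lay in an intron of Errfi1 and 5 were intergenic, on both sides of the gene, and the 2 given next were picked after their values were seen. In the intron window chr4:150858001-150859000, methylation was 34.8%, 27.2% and 14.3% in saline, 49.1%, 38.8% and 46.2% in OVA and 37.5%, 44.2%, 41.9% and 49.0% in DSE mice. OVA and DSE mice overlapped fully and both lay above all saline mice. In the intergenic window chr4:150889501-150890500, with 35 CpGs and 1284 to 1874 calls per mouse, methylation was 22.6% ± 4.02 (SD, n = 3) in saline, 37.8% ± 4.75 (n = 3) in OVA and 42.6% ± 4.0 (n = 4) in DSE mice. Differences here were 15 points in OVA vs. saline and 4.95 points in DSE vs. OVA, and the DSE mice, at 36.8% to 45.8%, overlapped the OVA mice, at 34.5% to 43.2%. In this locus the listed window was the single window called in DSE vs. OVA, and 10 windows were hyper methylated in DSE vs. saline.

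Averaged over the windows of the Errfi1 locus that do not overlap each other, methylation was 54.3%, 53.9% and 54.7% in saline, 58.1%, 60.3% and 59.6% in OVA and 56.1%, 60.6%, 59.2% and 60.6% in DSE mice. Every OVA mouse exceeded every saline mouse by this average over 24 windows, and DSE vs. OVA differed by -0.21 points. The OVA mice also exceeded the saline mice without overlap in the average over all 210918 such windows, but by 1.22 points, compared with 5.02 points at Errfi1. In 2 loci the order was the reverse, with every OVA mouse below every saline mouse, by -8.60 points over 5 windows at Clec4d and by -2.05 points over 9 windows at 2310035C23Rik.

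The other loci were uneven in both directions. Zfp568 held the window with the largest gain clear of the listed ones, chr7:29955501-29956500, 27.5 kb before its start site. This window and the others in the next sentences were picked after their values were seen. Methylation was 21.7%, 13.3% and 14.0% in saline, 35.5%, 38.5% and 44.1% in OVA and 38.7%, 31.9%, 30.9% and 38.1% in DSE mice. At 1 kb beyond it, in chr7:29957501-29958500, methylation fell from 55.9% ± 3.67 in saline to 41.3% ± 4.94 in OVA mice and was 49.6% ± 2.08 in DSE mice. Sppl3 held 5 hyper and 5 hypo methylated windows of 84 in OVA vs. saline. Its intron windows chr5:115022001-115023000 and chr5:115068501-115069500 differed by 14.7 and -14.2 points in OVA vs. saline and by -0.82 and 4.0 points in DSE vs. OVA. The hypo methylated window had 66.8%, 65.9% and 67.5% in saline and 53.5%, 51.7% and 53.4% in OVA mice. Gtf2e2 had 4 hyper methylated windows clear of the listed ones, all in the neighbouring gene Rbpms, and Ints6 had 3 hypo methylated ones, all in 4931440J10Rik. Pcmtd1 had 0 windows called in OVA vs. saline or DSE vs. OVA out of 23, with 8 and 7 windows at an unadjusted p under 0.05 by the likelihood ratio test.

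**Figure D4:**
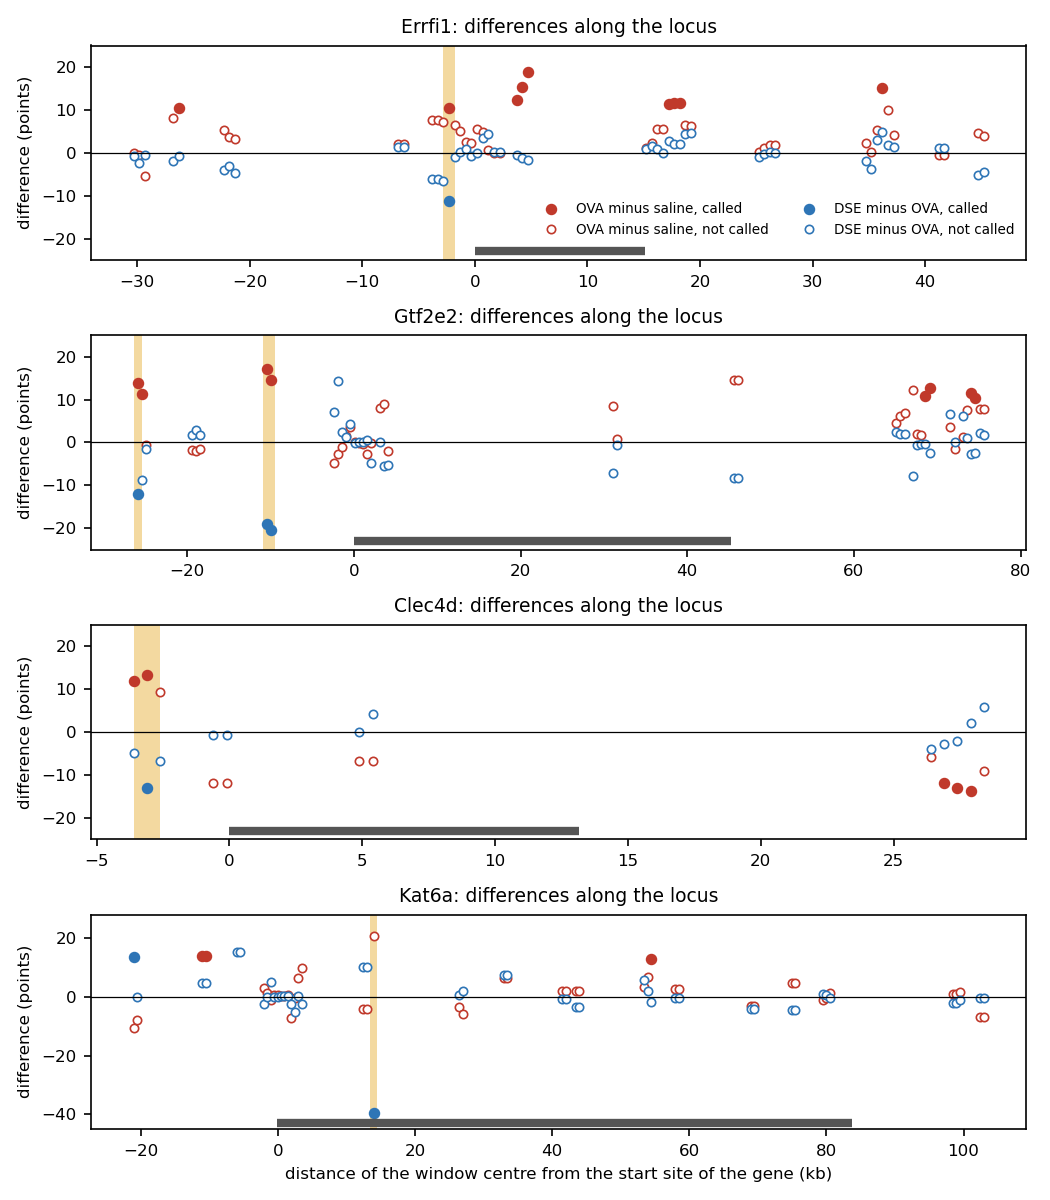
Differences in percentage points (y axis) in OVA vs. saline (red) and DSE vs. OVA (blue) along 4 loci against the distance of the window centre from the start site (x axis, kb), with filled circles for called windows, shaded bands for listed windows and a grey bar for the gene. In these 4 loci the blue circles at -10 points or lower lie in the bands, while red circles above 10 points also occur elsewhere in Errfi1, Gtf2e2 and Kat6a.

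At Clec4d the listed window gained methylation with OVA while the windows on its gene side lost it. Its locus held 12 windows, of which 9 were clear of the listed one, and all 9 were lower in OVA than in saline mice, with differences of -13.7 to -5.86 points and a median of -11.9 points. All 9 lay on the gene side, and they overlap in part. On the other side the locus held no clear window. The nearest one analysed there, 38500 bp from the listed window, differed by 1.37 points in OVA vs. saline. Of these 9, 3 were called hypo methylated in OVA vs. saline, all at the start of the neighbouring lectin gene Clec4e, which encodes a receptor of macrophages for microbial glycolipids. In chr6:123289001-123290000, with 1451 to 2597 calls per mouse, methylation was 58.3%, 60.6% and 59.2% in saline, 47.4%, 43.7% and 48.6% in OVA and 45.0%, 46.4%, 42.6% and 42.8% in DSE mice. In DSE vs. OVA the 9 windows differed by -4.01 to 5.81 points and 0 were called, and 5 were hypo methylated in DSE vs. saline. The listed window, 2.6 kb before the start site of Clec4d, rose by 13.2 points in OVA vs. saline. Its DSE vs. OVA difference of -13.0 points was not reached by either of its pieces, as given above.

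Clec4d and Clec4e are genes of myeloid cells, and the start site windows of leukocyte genes moved with them. Over 10 leukocyte genes, the mean methylation within 1 kb of the start site was 50.1%, 50.9% and 49.3% in saline, 42.2%, 38.2% and 37.3% in OVA and 40.6%, 39.4%, 41.5% and 38.6% in DSE mice. The mean of the OVA mice was lower than that of the saline mice in 10 of the 10 genes, without overlap between mice in 8. For Ptprc, which encodes the leukocyte surface protein CD45, the means were 64.6% in saline, 46.6% in OVA and 45.4% in DSE mice. Over the 4 of 8 lung epithelial genes with such windows the means were 52.9%, 54.4% and 54.0%, and over 4 liver genes, of a tissue that should be absent, they were 61.9%, 64.2% and 62.4%. The part of leukocytes in the values of the loci was not tested.

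Near the start sites of the 10 genes few windows moved. Within 1 kb of them lay 56 windows, and 0 of these were called in OVA vs. saline or in DSE vs. OVA by the likelihood ratio test, with 17 and 15 of them at an unadjusted p under 0.05. Called windows were also rare within 1 kb of all annotated start sites, where 2.15% were hyper and 1.43% hypo methylated in OVA vs. saline and 0.986% and 0.32% for DSE vs. OVA, so a count of 0 among 56 overlapping windows sets these promoters apart in neither comparison. In DSE vs. saline 2 of the 56 were hypo methylated, both at Clec4d. The median differences of the 56 were -0.06 and 0.19 points in OVA vs. saline and for DSE vs. OVA. Of the 13 windows centred nearest to a start site, 10 in 8 genes were under 5% in saline mice, and single mice ranged from 0% to 6.76% there. Their differences were -0.25 to 0.72 points in OVA vs. saline and -0.11 to 0.18 points in DSE vs. OVA. At Kat6a, for example, chr8:22859001-22860000 with 138 CpGs had 1.0% in saline, 1.7% in OVA and 2.8% in DSE mice as means over mice. Its differences of pooled calls were 0.72 points in OVA vs. saline and -0.06 points in DSE vs. OVA. The mean of the DSE mice was raised by replicate 3, with 6.76% of 74 calls, beside 1.33% to 1.59% in the others. A 95% interval at a start site window reached a median of 0.40 points to each side for a mouse, from 0.19 to 11.7, again for counting error alone.

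The 3 start site windows that were not under 5% in saline mice belonged to Errfi1 and Clec4d. At the first start site of Errfi1, chr4:150853501-150854500, methylation was 59.9%, 54.5% and 57.7% in saline, 58.2%, 65.2% and 65.8% in OVA and 61.4%, 61.4%, 64.4% and 65.5% in DSE mice. OVA and saline mice overlapped, and DSE mice lay within the range of the OVA mice. The CpG-rich second start site, chr4:150854501-150855500 with 110 CpGs, was at 11.8% ± 3.06 (SD, n = 3) in saline, 12.9% ± 3.35 (n = 3) in OVA and 17.4% ± 2.75 (n = 4) in DSE mice. At the start site of Clec4d, with 4 CpGs and 66 to 324 calls, methylation was 54.0%, 66.1% and 49.5% in saline, 47.1%, 40.4% and 50% in OVA and 45.0%, 41.7%, 44.4% and 47.9% in DSE mice. OVA mice overlapped saline mice there, and DSE mice lay below all saline mice.

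**Figure D5:**
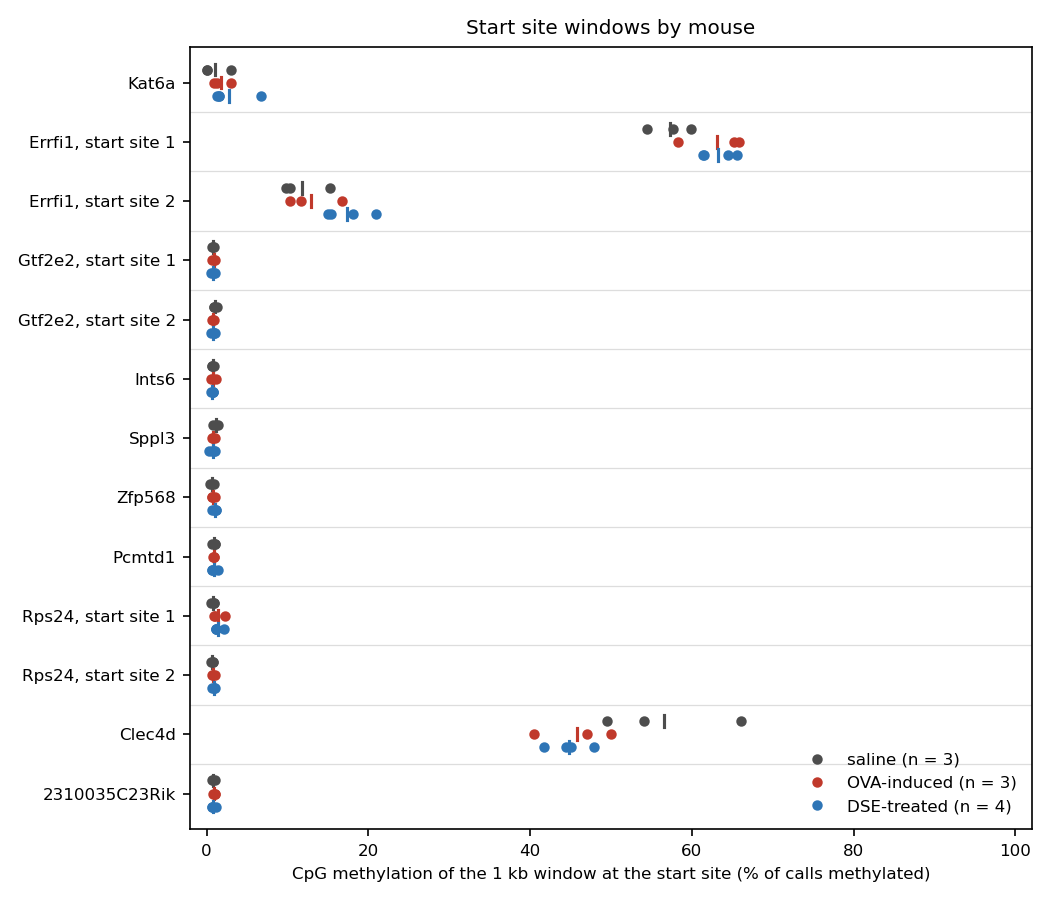
CpG methylation (x axis, percent of calls) of each mouse at the 13 windows nearest to the start sites of the 10 genes, with a short bar at the mean of each group. In 10 windows all mice lie at 6.76% or lower, and the remaining windows, which lie higher, belong to Errfi1 and Clec4d.

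Partners and relatives of the 10 genes were checked at their promoters in the same way. The list held 37 genes, among them other Integrator subunits, partners of Kat6a, the ErbB receptors and the lectins of the Clec4d cluster, and 30 had windows. Of 152 promoter windows, 0 were hyper and 4 were hypo methylated in OVA vs. saline, and 3 were hyper and 0 were hypo methylated in DSE vs. OVA, with median differences of -0.05 and 0.13 points over all 152. The 4 hypo methylated windows belonged to the lectin genes Clec4e, with 3, and Clec4a2, with 1. Those of Clec4e are the same windows that were given above for the Clec4d locus. The 3 windows in DSE vs. OVA belonged to Ints8, Ints12 and Sppl2a. The 4 hypo and the 3 hyper methylated windows were larger parts of the 152 than the 1.43% and 0.986% among all promoter windows. The opposite calls, hyper with OVA and hypo with DSE, were absent here, against 2.15% and 0.32% of all promoter windows. Counts this low among overlapping windows cannot tell whether the list differs, so nothing particular to the list is read from them.

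All these calls rest on reads pooled within groups and take no account of the spread between mice, so where mice differ the likelihood ratio test also calls windows whose groups do not. With an F test that includes that spread, 0 locus windows were called in any comparison, against 42 higher and 21 lower windows at an unadjusted p under 0.05 in OVA vs. saline. Those counts were 20 and 19 for DSE vs. OVA. Moderated tests by limma on M-values, the log2 ratio of methylated to unmethylated calls, also called 0 at an adjusted p under 0.01, against 57 higher and 30 lower windows in OVA vs. saline at an unadjusted p under 0.05. The same counts by limma were 24 and 28 for DSE vs. OVA. Over all deposited windows the F test called 0 in each comparison, while limma called 8 in DSE vs. OVA, 2 in DSE vs. saline and 0 in the remaining comparison. The mice were separate animals, with 3 or 4 in a group, and at that number a count of 0 by these stricter tests does not show that no window changed.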

How the data were processed

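CpG methylation was measured by SureSelect Methyl-seq in 1 library for each of 10 mice (3 saline, 3 OVA, 4 DSE). According to the study's methods, reads were trimmed and mapped to mm10, and methylation was taken over windows 1000 bp long that start every 500 bp. Per the file headers, the deposited values are counts per mouse of methylated and of unmethylated CpG calls in each window, with no normalisation seen in them. The submitters' processing notes name cutadapt 1.10, Bismark 0.19.0 and methylKit 1.0.0, and the study's methods give other versions of these tools. The mice were BALB/c and the reference is C57BL/6J, and strain variants at CpGs were not checked. The RNA-seq data were not analysed here.

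Percent methylation was 100 times methylated calls over all calls, with at least 20 calls per mouse and at least 2 such mice per group. Group differences are of pooled calls. A logistic model with a likelihood ratio test was fitted per window and adjusted by Benjamini-Hochberg over all windows (Python 3.11.15, scipy 1.17.1), and it was tested on simulated data. With no spread between simulated mice it made few false calls, but with such spread it called many unchanged windows, while the F test and limma then recovered almost none of the changed ones. An F test for overdispersion and limma 3.58.1 (R 4.3.3) on M-values were alternatives, as were other minimums, thresholds and flanks, a replicate block and leaving out each mouse. Promoters were 1 kb around RefSeq start sites of curated transcripts. Windows were named by rule (listed, overlapping, adjoining, start site, called in both comparisons), and others are marked as picked after their values were seen. The genes and lists were chosen with earlier results of these data known.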

Additional observations from a re-analysis of the deposited data

Results flagged for a closer look

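Dixon's test, run on the 4 DSE mice, picked out a mouse in 4 of 51 sets of values, where chance alone picks out about 1 in 20 independent sets. Some of the 51 hold the same calls, such as both listed windows of Rps24, so the 2 shares cannot be compared strictly. At the listed window of Errfi1, DSE replicate 1 had 58.1% methylation while the others had 67.4% to 69.1%. At the start site window of Kat6a, DSE replicate 3 had 6.76%, from 74 calls, while the others had 1.33% to 1.59%. At the start site window of Rps24, the same mouse had 2.13% beside 1.11% to 1.21%. At that of 2310035C23Rik, DSE replicate 1 had 1.2% beside 0.709% to 0.748%.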

How the results depend on the processing

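The median differences over locus windows clear of the listed ones shifted from their main values by less than the spread between mice (0.68 points) under each alternative run, and when 1 mouse was left out they ranged from 0.22 to 1.15 points for OVA vs. saline and from -0.05 to 0.16 points for DSE vs. OVA. Counts of called locus windows moved more. With the F test, and with limma at an adjusted p under 0.01, 0 windows were called in any comparison or direction. With limma at an adjusted p under 0.05, chosen after seeing the data, the hyper and hypo methylated windows were 0 and 0 in OVA vs. saline, 0 and 1 for DSE vs. OVA, 13 and 8 in DSE vs. saline, and 0 had the hyper/hypo pattern. At 20 points or more they were 1 and 0, 0 and 2, and 0 and 0, with 0 of the pattern. With windows that do not overlap they were 17 and 7 in OVA vs. saline, 13 and 8 for DSE vs. saline, 7 hypo methylated in DSE vs. OVA and 5 of the pattern, since fewer windows were tested. A flank of 10 kb gave 21 and 8 in OVA vs. saline and 10 hypo methylated in DSE vs. saline. A flank of 100 kb gave 55 and 25 in OVA vs. saline, 5 hyper methylated in DSE vs. OVA and 47 in DSE vs. saline.

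Leaving out 1 mouse gave 25 to 35 hyper and 9 to 20 hypo methylated windows in OVA vs. saline, 1 to 6 and 8 to 14 for DSE vs. OVA, 24 to 34 and 14 to 18 in DSE vs. saline, and 3 to 10 of the pattern. Without OVA replicate 2 there were 9 hypo methylated windows in OVA vs. saline and 6 hyper methylated for DSE vs. OVA, and without DSE replicate 4 there was 1. At the listed windows, leaving out each mouse in turn kept 36 calls of OVA vs. saline, lost 28 and added 3, and for DSE vs. OVA it kept 65 and lost 15. These counts do not include omissions that left too few OVA mice to test the window. Such were OVA replicate 1 or 2 at the second place in Gtf2e2, and OVA replicate 2 or 3 at 2310035C23Rik. Without saline replicate 3 the OVA vs. saline call was lost at Errfi1, Ints6, Pcmtd1, Sppl3, Rps24, 2310035C23Rik and the third window of Gtf2e2. It was lost without saline replicate 1 at 2310035C23Rik, Pcmtd1 and Sppl3, without saline replicate 2 at Gtf2e2 (second place), Ints6 and Rps24, without OVA replicate 1 at Errfi1, Ints6, Pcmtd1 and Rps24, without OVA replicate 2 at Rps24 and without OVA replicate 3 at Ints6, Pcmtd1 and Sppl3. The DSE vs. OVA call was lost without DSE replicate 1 at Clec4d, Errfi1, Pcmtd1 and Rps24, without OVA replicate 1 at Errfi1, Pcmtd1 and Rps24, without OVA replicate 2 or DSE replicate 4 at Rps24, and without OVA replicate 3 at Pcmtd1 and Sppl3. The cause was not tested. With a replicate block there were 33 and 13 called windows in OVA vs. saline, 3 and 10 for DSE vs. OVA, 26 and 16 in DSE vs. saline and 6 of the pattern. Mice with the same number did not deviate together (correlations of -0.027 to 0.078 over 9 pairs), so the numbers do not pair them. Depth limits the listed windows of Rps24, with 21 to 44 calls per mouse, and left 1 OVA mouse under the minimum at Gtf2e2 (15 calls) and at 2310035C23Rik (13 calls).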
